A study of Ovis aries with 6 samples.

Results

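PYGL, the liver form of glycogen phosphorylase, and PGD, 6-phosphogluconate dehydrogenase, were each read by 2 probes of a sheep array in the dorsal skin of newborn Hu lambs. The 4 probes were all probes whose RefSeq accession named 1 of the 2 genes, of 15008 probes on the array and of 767 probes with a gene name. PYGL was read by A_70_P030421 and A_70_P030422, and PGD by A_70_P039636 and A_70_P039637. The genes had been singled out because A_70_P030421 and A_70_P039636 were lower in large wave than in small wave skin by more than 1 on the log2 scale, with no overlap of the groups. The wave differences of all 4 probes below are therefore a description, with no test. In outline, PGD at A_70_P039636 was lower in large wave skin under each of the 30 settings that scaled the arrays to each other. The PYGL difference at A_70_P030421 had the same sign under its 30 settings. Its size ran from -3.07 to -0.18, depending on the spots kept, the scaling and the model, and on a spatial correction made by the scanner software. The -3.07 came from a fit with array brightness as a covariate on only 4 arrays, with outlier-marked spots left out. With those spots kept the same model gave -0.60. These 2 probes were chosen for their direction and the settings handle the same 6 arrays, so the steady sign is no support. The other probes, not chosen in this way, changed sign in some settings. A_70_P039637 of PGD ran from -1.0 to 0.63, with 28 of 30 settings below 0. The 0.63 also came from the brightness model on 4 arrays, which gave -0.39 with outlier-marked spots kept. A_70_P030422 of PYGL ran from -0.61 to 0.02, with 25 of 29 below 0.

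Glycogen phosphorylase takes glucose units off glycogen as glucose 1-phosphate, and PYGL is one of a family with PYGM, the muscle form, and PYGB, the brain form. The enzyme is switched on by phosphorylase kinase, which in turn answers to protein kinase A and to calcium bound by calmodulin. PGD works in the oxidative branch of the pentose phosphate pathway, where it turns 6-phosphogluconate into a pentose phosphate and makes NADPH. Keratinocytes of the hair follicle, above all those of the outer root sheath, store glycogen, and NADPH serves lipid synthesis in sebaceous glands and the thioredoxin and glutathione systems.

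The series holds 6 one-colour arrays, each from 1 Hu lamb aged 2 days: 3 lambs had large waves in the fleece and 3 had small waves. Per the design text all lambs had the same sire, and each dam gave one lamb of either pattern. No treatment or allele is given. Values of a group are listed in the order of lambs 1, 2 and 3. All 6 arrays lay on 1 slide. Array brightness, taken as the 75th percentile of the processed signal, ranged from 204.7 to 391.5 in the large wave and from 94.7 to 284.8 in the small wave arrays. The tissue carried its labelled markers: all 14 probes of the keratinocyte and hair follicle list were well above background on all 6 arrays. Of 11 skeletal muscle probes, 1 was well above background on all arrays and 5 on none. Of 5 hepatocyte probes, 2 were on all arrays, both for SERPINA1. Over all 10047 probes tested, 0 passed limma's adjusted threshold between coat patterns (0.0%), and 384 (3.82%) had an unadjusted p under 0.05. With 3 arrays a group, a count of 0 does not show that levels were alike.

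PYGL was clearly detected in the skin of every lamb by A_70_P030421. Its processed signal was 1841, 442 and 419 in the large wave lambs and 610, 1252 and 755 in the small wave lambs. The median pixel of its spot was 11.1 to 56.0 times the local background. Scaled as log2 signal minus the log2 75th percentile of the array, it stood at 2.23, 1.11 and 0.75 in the large wave lambs and at 1.10, 3.04 and 2.99 in the small wave lambs. The highest values were those of small wave replicates 2 and 3. Small wave replicate 1 lay within the range of the large wave lambs, so the groups overlapped when every spot was read. In whole skin, fewer cells of a type and less RNA per cell cannot be told apart.

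Feature Extraction, the scanner software, marked 2 of these 6 PYGL spots as non-uniform outliers, in large wave replicate 2 and small wave replicate 1. With both spots left out, 2 lambs a group remained. The large wave mean was then 1.49 ± 1.05 and the small wave mean 3.02 ± 0.03 (SD, n = 2 each), a difference of -1.53 ± 0.56 (SE from the limma fit), or 2.88-fold. With both kept, the means were 1.36 ± 0.77 and 2.38 ± 1.11 (SD, n = 3 each) and the difference -1.01 ± 0.62. The groups failed to overlap with the marked spots left out and overlapped with them kept. With marked spots left out, 11.2% of all probes had groups without overlap in either direction and 6.18% in the direction of PYGL. Most of those probes, 9220 of 10047, had values on all 6 arrays. Groups of 2 lambs separate more readily than groups of 3, so these shares are not a like measure for PYGL. With marked spots left out, the difference was -0.78 without large wave replicate 3, which left 1 large wave lamb. With marked spots kept it was -1.65 without small wave replicate 1. A difference of -1 or lower was present at 5.07% of all probes with marked spots left out and at 5.04% with them kept. Marks fell mostly on bright probes: of 10 classes by signal, 37.3% of probes in the brightest and 0.20% in the dimmest had at least 1 marked array.

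**Figure D1:**
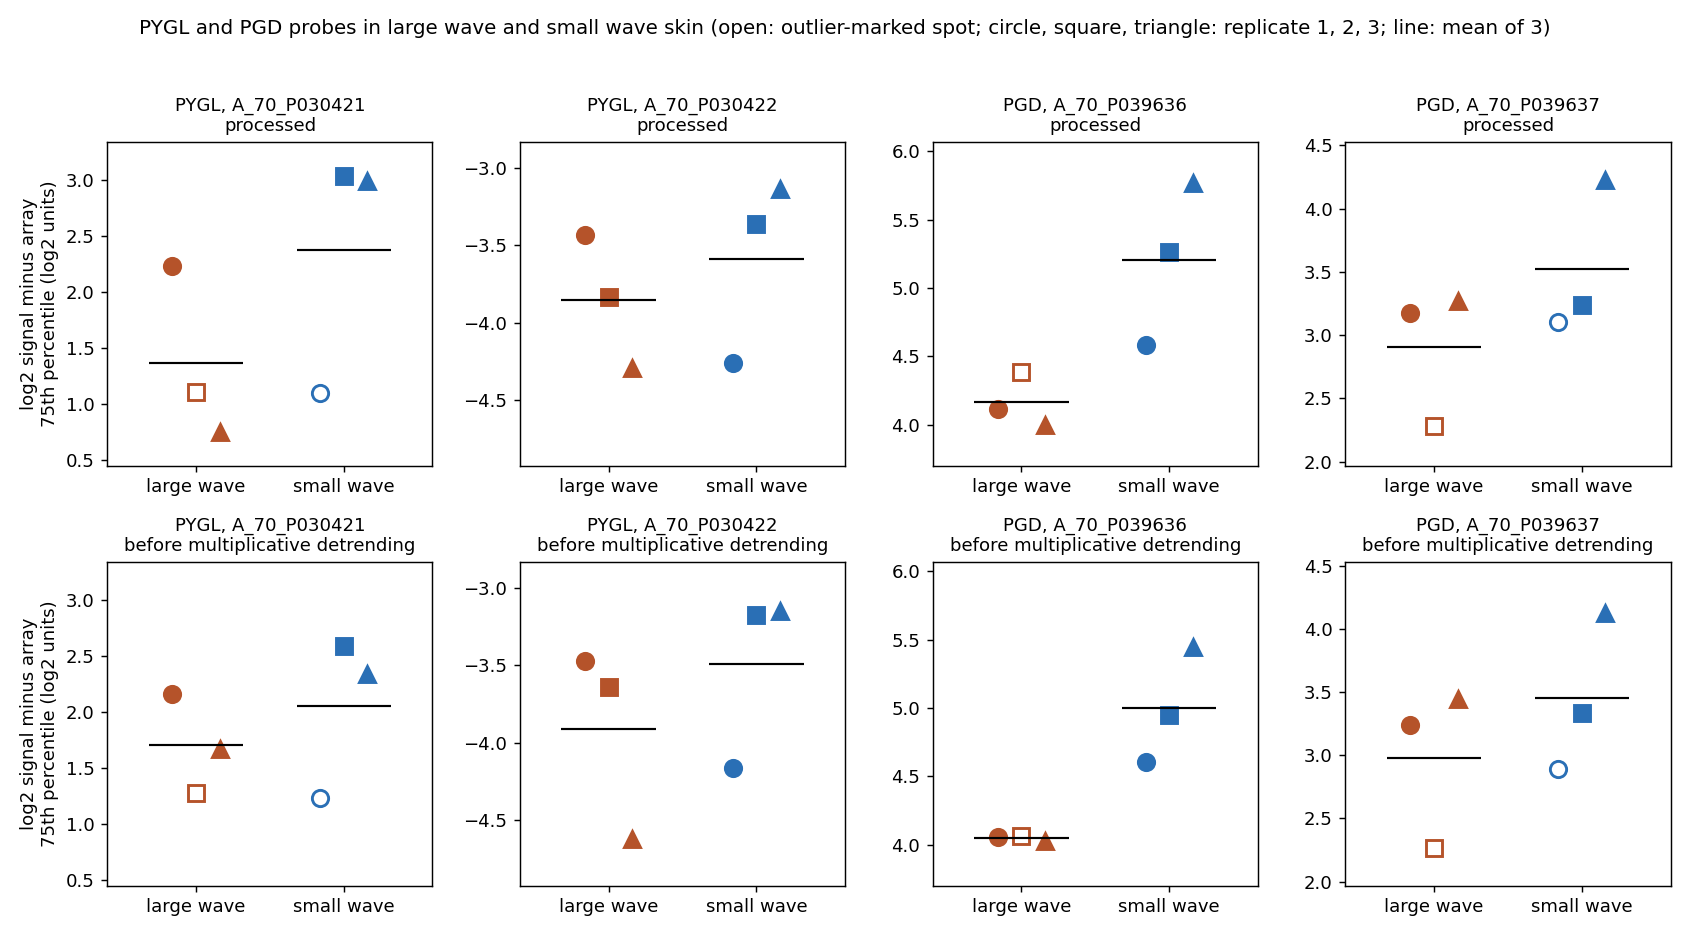
Log2 signal minus the array's 75th percentile (log2 units) for the 4 probes, as processed (upper row) and before multiplicative detrending (lower row); each symbol is 1 lamb, open symbols are outlier-marked spots and lines are means of 3. The large wave values of PGD probe A_70_P039636 lie at 4.03 to 4.06 before detrending, below all small wave values, whereas small wave replicate 1 of PYGL probe A_70_P030421 lies at 1.10, among the large wave values.

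The processed PYGL signal differed from the signal before the last correction step. A_70_P030421 sits in row 5 of 192 and column 10 of 82, near a corner of the array. Feature Extraction multiplies each background-subtracted signal by a smooth factor over the array, called multiplicative detrending. The factor at this spot was 1.04, 0.90 and 0.54 in the large wave lambs. In the small wave lambs it was 0.91, 1.38 and 1.65. The signal of large wave replicate 3 was thus lowered to 0.54 of its value, and that of small wave replicate 3 raised. Neighbouring spots had the same factors: their median was 0.53 in large wave replicate 3 (n = 55 spots within 6 rows and columns) and 1.62 in small wave replicate 3 (n = 27).

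On the log2 scale the factor at the PYGL spot had a mean of -0.33 on the large wave arrays and 0.35 on the small wave arrays, a gap of -0.68. Over the 3307 spots with background-subtracted signals above 100 on all arrays, the gap had a median of -0.02, and 5% of spots lay below -0.33. A gap as low as that of the PYGL spot was present at 0.39% of these spots. Before detrending, the scaled PYGL values were 2.17, 1.28 and 1.67 in the large wave lambs. They were 1.24, 2.60 and 2.35 in the small wave lambs. The large wave lambs then lay between small wave replicate 1 and the other small wave lambs. The difference was -0.35 ± 0.44 with all spots and -0.55 ± 0.39 with the marked ones left out. Before detrending, 5.61% of all probes had a difference of -1 or lower with all spots read, and PYGL was not among them. The factor also went with the position on the slide, being below 1 in the 3 arrays of slide row 1 and above 1 in the 3 arrays of row 2. Row 1 held small wave replicate 1 beside large wave replicates 2 and 3.

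**Figure D2:**
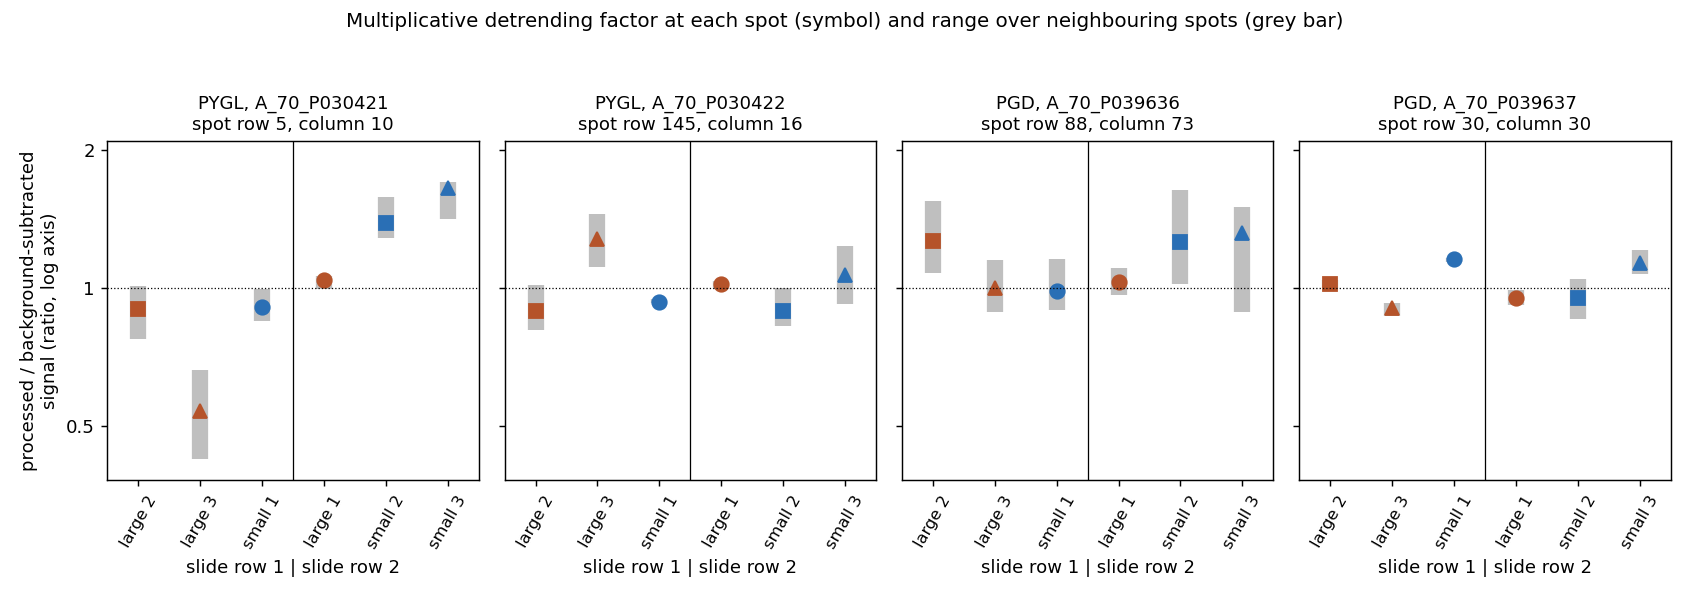
Ratio of processed to background-subtracted signal (log axis) at the spot of each of the 4 probes on the 6 arrays, grouped by slide row; grey bars span the neighbouring spots. At PYGL probe A_70_P030421 the ratio runs from 0.54 in large wave replicate 3 to 1.65 in small wave replicate 3, while at PGD probe A_70_P039637 it stays between 0.90 and 1.16.

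The other PYGL probe, A_70_P030422, was dim and its groups overlapped. Its processed signal was 36.2, 14.4 and 12.7 in the large wave lambs and 14.8, 14.8 and 10.8 in the small wave lambs. The median pixel was 1.81 to 2.50 times the local background. It was well above background on 5 of 6 arrays, small wave replicate 3 being the exception, and no spot was marked. Scaled values were -3.44, -3.83 and -4.30 in large wave and -4.26, -3.36 and -3.13 in the small wave lambs. The difference was -0.27 ± 0.49 as processed and -0.42 ± 0.53 before detrending, each smaller than its error. Leaving out single arrays moved the processed value between -0.61, without small wave replicate 1, and -0.04, without small wave replicate 3. Dropping replicate 1 or 3 of the large wave group gave -0.48 or -0.05, and dropping replicate 2 of the small wave group gave -0.16.

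Brightness cannot be set against brightness between probes, so only the spread of the gap between them over the arrays was read. With all spots read, A_70_P030421 exceeded A_70_P030422 by 5.67, 4.94 and 5.05 in the large wave lambs and by 5.36, 6.40 and 6.13 in the small wave lambs. The gap varied by 0.59 (SD, n = 6 arrays) around 5.59. Before detrending it varied by 0.45, and its group means were 5.62 (large wave) and 5.55 (small wave), against 5.22 and 5.97 as processed. The dim probe was not well above background in small wave replicate 3, so the gap there is uncertain. On the other 5 arrays the gap varied by 0.59 as processed and 0.50 before detrending.

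PGD was bright and lower in large wave skin at A_70_P039636 under every setting run. Its processed signal was 6764, 4282 and 3987 in the large wave lambs and 6835, 5842 and 5161 in the small wave lambs. The median pixel was 93.7 to 210.1 times the local background, and no spot was saturated. Before scaling the groups overlapped, large wave replicate 1 reading close to small wave replicate 1. Scaled values were 4.11, 4.39 and 4.0 in the large wave lambs and 4.59, 5.26 and 5.77 in the small wave lambs. All 3 large wave lambs lay below all 3 small wave lambs, also with the marked spot of large wave replicate 2 read. With marked spots kept, 9.74% of all probes had groups that did not overlap, 5.19% in this direction.

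At A_70_P039636 the large wave mean was 4.17 ± 0.20 and the small wave mean 5.21 ± 0.59 (SD, n = 3 each, all spots read), a difference of -1.04 ± 0.37 (SE from the limma fit). With the marked spot left out the difference was -1.15 ± 0.42, or 2.22-fold. Before detrending the large wave lambs stood at 4.05, 4.06 and 4.03 and the small wave lambs at 4.61, 4.95 and 5.45. The difference of those values was -0.95 ± 0.31. The large wave values there spanned less than 0.1 on the log2 scale, while most of the spread was among the small wave lambs. Leaving out single arrays gave -1.46 to -0.87 with marked spots left out and -1.35 to -0.76 with them kept.

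A_70_P039637, the other PGD probe, was lower on average but its groups overlapped. Its processed signal was 3532, 993 and 2404 in the large wave lambs and 2447, 1436 and 1773 in the small wave lambs. Scaled values were 3.17, 2.28 and 3.27 in the large wave lambs and 3.10, 3.24 and 4.23 in the small wave lambs. Large wave replicate 2 was the lowest and small wave replicate 3 the highest, and the other 4 lambs lay within 0.2 of each other. The spots of large wave replicate 2 and small wave replicate 1 were marked as outliers. The difference was -0.62 ± 0.43 with these kept and -0.51 ± 0.45 without them. With the marked spots left out it was -0.02 without small wave replicate 3 and -1.0 without small wave replicate 2, each resting on 1 small wave lamb. With them kept it was -0.26 without small wave replicate 3 and -0.30 without large wave replicate 2.

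The gap between the 2 PGD probes was 0.94, 2.11 and 0.73 in the large wave lambs and 1.48, 2.02 and 1.54 in the small wave lambs. It varied by 0.56 (SD, n = 6 arrays), and by 0.50 before detrending. Large wave replicate 2 had the widest gap and the other large wave arrays the narrowest. As a measure of spot error, 50 probes other than controls were printed 5 times each. Those with at least 3 unmarked spots above a signal of 100 varied by a median of 0.13 to 0.21 (SD, log2) between spots of an array, 5 to 13 probes an array. The widest such spread on an array was 0.26 to 0.67. These are spreads within an array, whereas the gaps also carry differences between lambs.

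**Figure D3:**
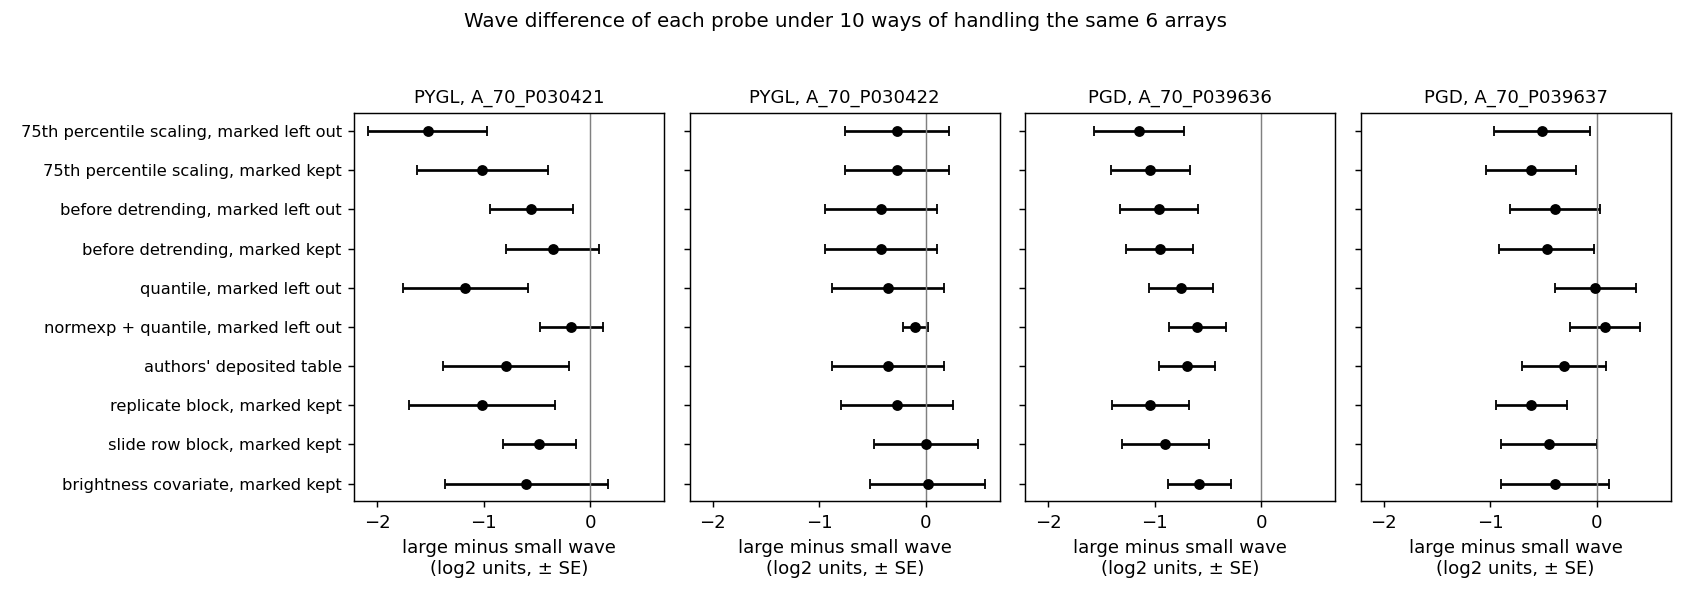
Large wave minus small wave difference (log2 units, ± SE from limma) of each probe under 10 ways of handling the same 6 arrays, from top to bottom. PGD probe A_70_P039636 lies below 0 throughout, at -1.15 in the uppermost setting, and PYGL probe A_70_P030421 moves from -1.53 to -0.18.

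The size of these differences depended on the scaling between arrays. Without any scaling, the large wave arrays were brighter by a median of 0.74 over all probes (log2, marked spots kept). PGD at A_70_P039636 then differed by -0.28, which is -1.02 relative to that median. PYGL at A_70_P030421 differed by -0.25, or -0.99 relative to it. The dim PYGL probe and the second PGD probe had differences of 0.49 and 0.15 without scaling, and -0.25 and -0.59 relative to the median. In the authors' deposited table, which holds values for all spots, the differences were -0.79 and -0.36 for the PYGL probes and -0.69 and -0.31 for the PGD probes. After normexp correction with an offset of 50 and quantile normalization they were -0.18, -0.10, -0.60 and 0.08 in the same order. That setting started from the median pixel signals, so it left out detrending as well as changing the scaling.

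The scaled PGD values moved with array brightness. From the brightest to the dimmest array (replicates 1 large, 1 small, 3 large, 2 large, 2 small and 3 small), A_70_P039636 read 4.11, 4.59, 4.0, 4.39, 5.26 and 5.77. Its highest values lay in the 2 dimmest arrays, both small wave. Small wave replicate 1, the second brightest array, read 4.59, above all 3 large wave arrays. Pearson's r between the scaled values of this probe and log2 array brightness was -0.89 over the 6 arrays, with marked spots kept. Scaling had subtracted log2 array brightness from these values, so a negative r was partly built in. In the same order of arrays the processed signals before scaling were 6764, 6835, 3987, 4282, 5842 and 5161. With all spots read, the difference at A_70_P039636 was -1.04 ± 0.37 without brightness as a covariate and -0.58 ± 0.29 with it. For PYGL at A_70_P030421 the difference with the covariate was -0.60 ± 0.77. Brightness as a part of the wave difference was otherwise not tested.

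Lambs of the same number were compared as pairs, since their deviations from the group means went together; no label ties the number to a dam. With all spots read, PGD at A_70_P039636 was lower in the large wave lamb of every pair, by -0.47, -0.88 and -1.77 in pairs 1 to 3. This direction in all 3 pairs was found in 18.8% of all probes. At A_70_P039637 the pair differences were 0.07, -0.96 and -0.96. PYGL at A_70_P030421 was higher in the large wave lamb of pair 1, by 1.13, and lower in pairs 2 and 3, by -1.93 and -2.24. The dim PYGL probe had the same signs, 0.83, -0.47 and -1.16. Pair 1 thus went against pairs 2 and 3 at both PYGL probes. Pairs share a slide column, so dam and column cannot be told apart.

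The slide row split the arrays differently. Within row 1, where 2 of 3 arrays were large wave, A_70_P039636 of PGD differed by -0.39 with all spots read. Within row 2, where 1 of 3 was large wave, it differed by -1.40. PYGL at A_70_P030421 differed by -0.17 in row 1 and by -0.78 in row 2. Before detrending PYGL differed by 0.24 and -0.30, and PGD by -0.56 and -1.14. The sign of the PGD difference was the same in both rows and that of PYGL before detrending was not.

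None of the other genes of carbohydrate metabolism passed the test, and the share with lower values in large wave skin was near that of all named genes. Of 168 genes in 7 carbohydrate lists, 18 were on the array under a RefSeq name and 16 were tested. Apart from PYGL and PGD, 10 of 14 (71.4%) had lower and 4 had higher values in large wave skin. The median difference of these 14 was -0.31, against -0.15 over the 346 named genes tested, of which 59.8% had lower values. In limma 0 of the 14 passed over all probes, and 0 had an unadjusted p under 0.05, also in the deposited table.

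The glycogen list had 6 of 35 genes tested. Without PYGL, which was chosen for its difference, 4 of 5 had lower values and 1 higher, with a median of -0.63. Both other phosphorylases of the glycogen list had lower values in large wave skin. PYGB, the brain form, had 2 probes without marked spots. A_70_P012611 had a large wave mean of -1.57 ± 0.36 and a small wave mean of -1.05 ± 0.36 (SD, n = 3 each), a difference of -0.52 ± 0.38 (SE). A_70_P012612 gave -0.48 ± 0.52, a similar value. PYGB values overlapped between groups, with small wave replicate 3 the highest at both probes.

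PYGM, the muscle form, was dim. Its probe, printed 5 times, had median processed signals of 12.2, 11 and 13.3 in the large wave lambs and 21.7, 6.87 and 17.9 in the small wave lambs. In small wave replicate 2 none of the 5 spots was well above background. The mean scaled difference was -0.87 ± 0.61. Within an array the 5 single spots varied by 0.14 to 0.76 (SD, log2), and each lamb's value was their average. Between lambs those averages varied by 0.47 in the large wave and 1.03 in the small wave group (SD, n = 3 each).

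Of the activating side, PHKG2, the catalytic subunit of phosphorylase kinase in liver and testis, had higher values in large wave skin by 0.43 ± 0.53. PRKACA, the catalytic subunit of protein kinase A, had -0.92 ± 0.48 at its brighter probe and -0.12 ± 0.54 at the other. CALM2, a calmodulin gene, had -0.63 ± 0.55 with 1 marked spot left out. At PRKACA's brighter probe and at CALM2 the highest value was that of small wave replicate 3, the dimmest array.

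**Figure D4:**
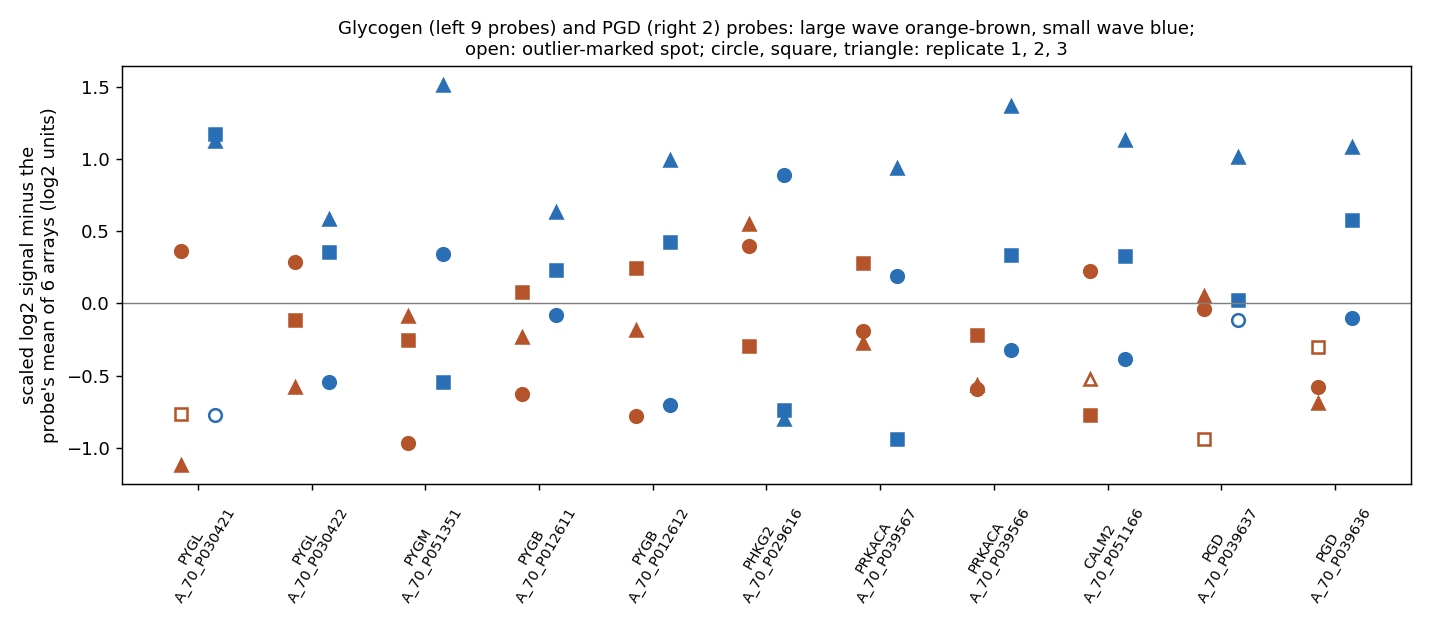
Scaled log2 signal minus the probe's mean of 6 arrays (log2 units) for the 9 glycogen probes with a RefSeq name and the 2 PGD probes; each symbol is 1 lamb and open symbols are outlier-marked spots. With all spots read, the groups overlap at each of these probes except PGD A_70_P039636, and small wave replicate 3 is the highest at most of them.

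Among other sources of NADPH, IDH1, the cytosolic isocitrate dehydrogenase, had -0.56 ± 0.38, and ME1, malic enzyme, had 0.57 ± 0.66. TXN, thioredoxin, which is kept reduced with NADPH, had -0.18 ± 0.30 at its brighter probe and -0.84 ± 0.54 at the other, or -0.28 there with the marked spot kept. In glycolysis, GAPDH had -0.20 ± 0.36 and the glucose transporter SLC2A3 -0.35 ± 0.54, with -0.31 ± 0.42 at its second probe. SLC2A5, a fructose transporter, had 0.16 ± 0.66 and, at its second probe, 1.02 ± 0.68. The groups of IDH1 did not overlap with its marked spot kept or left out, and the difference with it kept was -0.65. They lay close, the highest large wave value being 4.88 and the lowest small wave value 4.90. Of the hormonal list, the kinase AKT1 had 0.59 ± 0.29, and PRKAA2, a catalytic subunit of AMP-activated kinase, had -1.22 ± 0.78 at one probe and 1.02 ± 0.95 at the other. ADRB3, an adrenergic receptor, was well above background on no array. The groups of AKT1 did not overlap: the large wave lambs stood at 0.28, 0.18 and 0.22 and the small wave lambs at -0.09, -0.45 and -0.55. Over all probes, 11.2% had groups without overlap with marked spots left out and 9.74% with them kept, in either direction.

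Markers of the cells that skin can hold are given beside these values. The summed linear level of the 14 keratinocyte and hair follicle probes ranged from 886 to 1102 in large wave and from 864 to 1594 in small wave arrays, in units of each array's 75th percentile. That of 7 adipocyte probes, 3 of them on all arrays and 1 on none, ranged from 4.67 to 5.13 in large wave and from 5.30 to 8.64 in small wave arrays. PPARG made up most of this sum, and its own groups overlapped. Leukocyte probes, 3 of 10 on all arrays, ranged from 0.48 to 0.69 and from 0.54 to 1.43. Skeletal muscle probes, PYGM among them, ranged from 0.63 to 0.87 and from 0.62 to 0.80, and the myoglobin, MSTN and MYOG probes were on no array. Hepatocyte probes ranged from 2.77 to 10.3 and from 3.90 to 17.6. The part of these cell types in the PGD and PYGL values was not tested.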

How the data were processed

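Per the file headers, the deposited scanner files of 6 arrays (design 019921) hold intensity values of Agilent Feature Extraction 10.7.3.1: the processed signal, background-subtracted and multiplicatively detrended, and the signal before detrending. The authors' deposited table holds log2 values whose normalization no source used here states; they correlated with quantile-normalised processed signals at 0.9998 or above, and served as an alternative.

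Here each log2 processed signal was reduced by the array's log2 75th percentile, spots of a probe were averaged, and outlier-marked spots were left out or kept. Probes well above background on at least 3 arrays entered limma 3.58.1 in R 4.3.3 (variance trend, Benjamini-Hochberg over 10047 probes, threshold 0.05), checked on simulated data. The number of arrays limits the precision, and differences of the size seen here could pass unnoticed.

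Of 786 RefSeq probes, 767 matched assembly ARS-UI_Ramb_v3.0, giving 500 genes; the tested probe with the highest mean stood for its gene. Named genes were PYGL and PGD, all measured genes of the glycogen and pentose phosphate lists, up to 4 of each other list, and the 3 genes correlating best with each PYGL or PGD probe on all arrays; 2 of the list genes are not reported here. Members and lists were chosen with earlier results of these data known.

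Same-numbered lambs were treated as pairs: their deviations correlated at 0.30, 0.18 and 0.20 over 9220 probes. The model had no block. Settings without detrending or without scaling were chosen after seeing the data, apart from the normexp setting, which was planned. So were those with marked spots kept beside a block, a covariate or a left-out array. A search by enzyme name was not run, as the files hold no gene descriptions.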

Additional observations from a re-analysis of the deposited data

How the results depend on the processing

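The count of probes past limma's adjusted threshold was 0 under each setting run, as was that of the genes of the carbohydrate lists; with so few arrays these counts say nothing about stability. Groups did not overlap for 1122 probes with marked spots left out and 979 with them kept. With marked spots left out, single left-out arrays gave -2.27 to -0.78 (PYGL A_70_P030421), -0.61 to -0.04 (PYGL A_70_P030422), -1.46 to -0.87 (PGD A_70_P039636) and -1.0 to -0.02 (PGD A_70_P039637). For A_70_P030421 and A_70_P039637 both ends of these ranges rest on 1 lamb in a group. With marked spots kept, the ranges were -1.65 to -0.68, -0.61 to -0.04, -1.35 to -0.76 and -0.83 to -0.26. A_70_P030421 then had -0.71 without large wave or small wave replicate 3.

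A_70_P030421 had -0.18 after normexp correction, -3.07 with brightness as a covariate and -0.60 with it and marked spots kept, -0.55 before detrending and -0.35 with marked spots kept, -0.15 without scaling and -0.25 with marked spots kept, and -0.48 with the slide row as a block and marked spots kept. A_70_P030422 turned to 0.0059 with the slide row as a block, 0.020 with the covariate and 0.49 without scaling, alike with marked spots kept, and the mean of both PYGL probes was -0.90. A_70_P039636 had -0.60 after normexp correction, -0.56 with the covariate, -0.58 with it and marked spots kept, -0.19 without scaling and -0.28 with marked spots kept. A_70_P039637 had -0.013 after quantile normalization and turned to 0.078 after normexp correction, 0.63 with the covariate, 0.87 without scaling and 0.15 there with marked spots kept. The gap between the wave differences of the PYGL probes turned to 0.067 before detrending with marked spots kept. The causes were not tested, except that settings without detrending and without scaling leave out the step they name. The normexp setting, which started from median pixel signals, also left out detrending.

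With the replicate block, taken as the pairing, and marked spots left out, the differences were -2.24 and -0.27 for the PYGL probes. For the PGD probes they were -1.12 and -0.96. A_70_P030421 and A_70_P039637 rest on pair 3 alone there. With marked spots kept every pair was complete, so the block could not change a difference. The block changed no call. The number of arrays limits what could be resolved at every probe, and the dim PYGL probe was also close to background.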

Other observations

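The named genes whose scaled values were most like those of the PYGL and PGD probes over the 6 arrays were listed as a description, with marked spots kept and out of 345 other named genes. For PGD at A_70_P039636 these were AQP1, a water channel (Pearson's r = 0.987 over 6 arrays), NFKBIA, the inhibitor of NF-kappaB (0.981), and POLR2G, a subunit of RNA polymerase II (0.972). For PGD at A_70_P039637 they were IRAK4, a kinase of innate immune signalling (0.981), GGTA1, a galactosyltransferase (0.950), and the growth factor IGF2 (0.939). For PYGL at A_70_P030421 they were LOC443441 (0.968), SRI, the calcium-binding protein sorcin (0.961), and PURA, a nucleic acid-binding protein (0.916). No gene was in the list of both PGD probes. All arrays share 1 slide and the values share the array's brightness, so these correlations have no p. The wave difference was not taken out first, so genes with a like difference could rank high. AQP1, NFKBIA and POLR2G differed by -2.29, -0.98 and -0.71 (large minus small wave, marked spots kept).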
